A study of Homo sapiens with 4 samples.

Results

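The BCL2 family sets the threshold at which a cell starts mitochondrial apoptosis, and 10 of its genes were followed through 4 RNA-seq libraries of LNCaP cells. The genes were listed by their known roles. They were MCL1, BCL2 and BCL2L1 (anti-apoptotic), BAX and BAK1 (effectors), and BCL2L11, PMAIP1, BID, BAD and BIK (BH3-only). All 10 had an RPKM value (reads scaled to exon length and library depth) in each of the 4 libraries, among 19801 listed genes. LNCaP is a human prostate cancer line that responds to androgen. The cells were transfected for 24 h with the AR1-651 construct or with empty vector, and were then kept with or without AIL for 12 h. AIL is ailanthone, a quassinoid from the tree Ailanthus altissima. Each of the 4 conditions (empty vector and AR1-651, without and with AIL) gave 1 library. No difference therefore has a replicate check, no p-value is given, and all values compare single libraries. Whole cultures were taken, since no sorting is described in the sources used here, and fewer cells of one kind cannot be told apart from less RNA per cell.

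Anti-apoptotic members hold the effectors and the BH3-only proteins in check by binding them. BAX and BAK1, once released and activated, form pores in the outer mitochondrial membrane through which cytochrome c escapes, and caspases are then activated in the cytosol. BH3-only proteins are the sensors of the family. Some, such as the products of BCL2L11 (BIM) and BID, can engage the effectors directly, whereas others, such as the products of PMAIP1 (NOXA) and BAD, act mainly by occupying anti-apoptotic partners. NOXA is known for its preference for MCL1, and BAD for BCL2 and BCL-XL, the product of BCL2L1.

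The members share the BH3 motif, which in effectors and BH3-only proteins is a short helix that fits into the groove of an anti-apoptotic partner. The stretch that encodes its core is shown for all 10 genes because it is a part that they have in common. Each stretch has 27 bases and lies within coding exon sequence of GENCODE release 29 on GRCh38. The first capitals mark the codon of the conserved leucine and the second the codon of the conserved aspartate. The coding sequence used for each member, its longest in which the motif was found, held exactly 1 stretch with a leucine, 3 free positions, a glycine or serine, that aspartate, and then an aspartate, glutamate, glycine, lysine or serine.
MCL1 (chr1:150578868-150578894, minus strand): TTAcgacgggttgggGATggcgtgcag
BCL2 (chr18:63318352-63318378, minus strand): CTCcgccaggccggcGACgacttctcc
BCL2L1 (chr20:31721925-31721951, minus strand): CTGagggaggcaggcGACgagtttgaa
BAX (chr19:48955787-48955813, plus strand): CTCaagcgcatcgggGACgaactggac
BAK1 (chr6:33575390-33575416, minus strand): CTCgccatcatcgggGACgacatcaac
BCL2L11 (chr2:111150103-111150129, plus strand): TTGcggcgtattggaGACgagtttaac
PMAIP1 (chr18:59902673-59902699, plus strand): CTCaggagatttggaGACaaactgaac
BID (chr22:17739418-17739444, minus strand): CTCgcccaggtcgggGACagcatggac
BAD (chr11:64271625-64271651, minus strand): CTCcggaggatgagtGACgagtttgtg
BIK (chr22:43127716-43127742, plus strand): CTGgcctgcatcgggGACgagatggac

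The coding sequence around these motifs differed widely in length. That of PMAIP1 was the shortest, with 54 codons and the motif from codon 29. That of MCL1 was the longest, with 350 codons and the motif from codon 213.

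The libraries were checked before the members were compared. Short genes at the lowest RPKM values gave an approximate depth of 4890000 to 5800000 reads per library, and the reads behind each member were estimated from it. The construct itself was not checked here, so its library is named by its label. KLK3, the androgen-regulated gene that encodes prostate-specific antigen, was at 286.6 RPKM with empty vector and 1442 in the library labelled AR1-651, and with AIL at 302.6 and 581.5. Of the other luminal markers, FOLH1 was at 424.5 to 839.9 RPKM, and KLK2, TMPRSS2 and KRT8 were 3.70, 2.88 and 1.46 higher on the log2(RPKM + 1) scale in the library labelled AR1-651 than with empty vector. KRT18 changed by 0.97 in the same comparison, and HOXB13 went the other way, at -0.73. Of 6 markers of other cell types that were analysed, only COL1A1 reached 1 RPKM, with 4.59 at most, and PTPRC and PECAM1 stayed under 1. Changes below are differences of log2(RPKM + 1), a scale that understates the change of genes with low values. A change of 2-fold or more was called, over the 14626 genes that reached 1 RPKM in any library, and all 10 members passed that filter. The median change of all these genes was -0.30 for AR1-651 against empty vector and -0.085 after median-ratio scaling, so the place of a member among all genes is given as a percentile. With that scaling, genes called higher and lower in that comparison went from 586 and 1701 to 1066 and 817, and for AR1-651 + AIL against AR1-651 from 2184 and 839 to 1582 and 1261.

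The members covered a range of about 2 orders of magnitude in RPKM, which is a level per length. The gene lengths behind the deposited values are not known, so comparisons between genes are approximate. BAD had the highest level in every library, from 107.1 RPKM with empty vector to 183.6 with empty vector + AIL. MCL1, BAX and BCL2L1 followed in all 4 libraries, and BAX exceeded MCL1 only in the library labelled AR1-651, at 73.27 against 68.98. At the lower end BCL2 was at 1.32 to 2.03 RPKM and BID at 0.81 to 2.98. The mean level of BCL2, the founding member of the family, lay at percentile 14.9 of the genes tested, and that of BAD at 96.6. MCL1 exceeded BCL2 54.8-fold with empty vector and 92.7-fold with empty vector + AIL. In the middle of the order PMAIP1 passed BCL2L11 in both libraries with AIL, and passed BAK1 in AR1-651 + AIL, where the levels were 13.28 and 11.12 RPKM. Neighbours in this order, such as BAX and MCL1 in the library labelled AR1-651, could not be set against a spread between replicates.

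**Figure D1:**
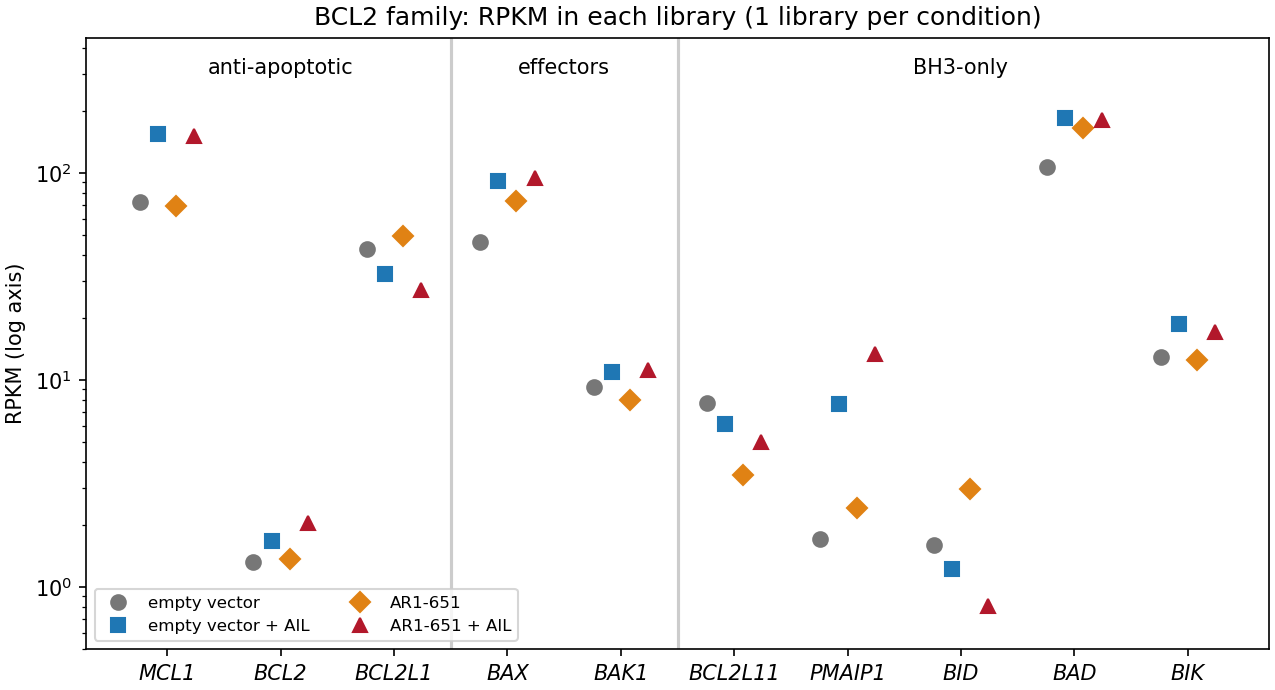
RPKM (log axis) of the 10 members in each of the 4 libraries, 1 point per library, grouped by role. BCL2L1 and BID are lower in both libraries with AIL than in both without, BCL2L11 overlaps, and all other members are higher in both. The share of all genes that separate in either way was not counted. BAD is the highest member throughout.

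AIL against no treatment with empty vector addressed whether the compound changed the family without the construct. Of the 10 members, 2 were called higher (MCL1 and PMAIP1), beside 9.53% of all genes tested, and 0 were called lower, beside 9.03%. The median change of the members was 0.36, beside -0.018 for all genes. AIL in the library pair with AR1-651 addressed the same question in its presence. Here 2 members were called higher, again MCL1 and PMAIP1, beside 14.9% of all genes, and 1 was called lower (BID), beside 5.74%. The median change was 0.39 for the members and 0.13 for all genes. With 10 genes, counts of 2 are not far from these background shares.

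Among the anti-apoptotic members, MCL1 and BCL2L1 differed in opposite directions. MCL1, which encodes a short-lived protein, was at 72.37 RPKM with empty vector and 153.9 after AIL, and at 68.98 with AR1-651 and 150.5 after AIL. Both libraries with AIL lay above both without, as they did for BCL2, BAX, BAK1, PMAIP1, BAD and BIK. BCL2L1 and BID were lower in both, and the share of all genes that separate in either way was not counted. With empty vector, the differences with AIL of BCL2, BAK1 and BID lay within counting error (below). The RPKM ratio of MCL1 was 2.13 with empty vector (95% interval for counting error only, 1.89 to 2.4) and 2.18 with AR1-651 (1.94 to 2.46). On the log2(RPKM + 1) scale the changes were 1.08 and 1.12, at percentiles 91.9 and 87.8 of all genes. The second is just past 2-fold and was 0.90 after median-ratio scaling and 0.95 once the dependence of the change on transcript length and GC was removed (below, the trend), which ends the call.

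BCL2L1, whose main product BCL-XL guards the same effectors, was at 43.14, 32.43, 49.39 and 27.25 RPKM in the same order of libraries, which is kept for the values that follow. Both libraries with AIL were lower than both without. The ratio with AIL was 0.752 with empty vector (counting interval 0.657 to 0.859) and 0.552 with AR1-651 (0.485 to 0.628), changes of -0.40 and -0.83 on the log2(RPKM + 1) scale. The second lay at percentile 8.1 of all genes and was not called as deposited, but reached -1.05 after median-ratio scaling. The ratio of MCL1 to BCL2L1 was 1.68 with empty vector and 1.4 with AR1-651, against 4.75 and 5.52 with AIL. BCL2, an anti-apoptotic protein of mitochondria and endoplasmic reticulum, was at 1.32, 1.66, 1.37 and 2.03 RPKM. Its ratio with AIL was 1.26 with empty vector, where the counting interval included 1 with the shortest (0.764 to 2.0) and the longest transcript (0.844 to 1.84). With AR1-651 it was 1.48, where the interval included 1 with the shortest (0.984 to 2.32) and not with the longest (1.05 to 2.1), and the sign of the change turned with the trend removed (-0.064).

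The effectors were called in no comparison. BAX, which is largely cytosolic until activated, was at 46.49, 91.82, 73.27 and 94.31 RPKM, with the empty vector library the lowest. Its ratio with AIL was 1.98 with empty vector (counting interval 1.51 to 2.61) and 1.29 with AR1-651 (1.03 to 1.61). On the log2(RPKM + 1) scale the first change, 0.97, was just below 2-fold. BAK1, which resides in the mitochondrial membrane, was at 9.19, 10.91, 8.03 and 11.12 RPKM. Its ratio with AIL was 1.19 (0.898 to 1.56) and 1.38 (1.05 to 1.81), so the first could not be told from 1 at this depth.

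Of the BH3-only members, PMAIP1 had the largest ratio between its highest and lowest library, at 7.77, ahead of BID at 3.68. PMAIP1 was at 1.71 RPKM with empty vector and 7.65 after AIL, and at 2.41 with AR1-651 and 13.28 after AIL. These values stand for about 17, 72, 26 and 147 reads. Both libraries with AIL were well above both without. The RPKM ratio with AIL was 4.47 with empty vector (counting interval 2.67 to 8.27) and 5.51 with AR1-651 (3.59 to 8.66). On the log2(RPKM + 1) scale the changes were 1.67 and 2.07, at percentiles 97.7 and 98.3 of all genes. The PMAIP1 transcript had 37.2% GC, below the median of 49.6% over the tested genes. Across 14005 genes, which are not independent replicates, the change with AIL in the pair with AR1-651 fell with GC content (Spearman rho = -0.408), and with the length and GC trend removed the second PMAIP1 change was 1.23, still past 2-fold.

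The BH3-only sensor BID, which caspase-8 cleaves to link death receptors to mitochondria, was at 1.6, 1.22, 2.98 and 0.81 RPKM. Its lowest and highest values were those of AR1-651 + AIL and AR1-651. The ratio between them was 0.272, which on the shortest listed transcript rests on about 3 and 11 reads (counting interval 0.0473 to 1.0) and on the longest has an interval of 0.136 to 0.55. With empty vector the ratio with AIL was 0.762 (0.149 to 3.03), not distinguishable from 1. The call of BID is thus the least deeply sampled of the 5 made on the members.

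BCL2L11, which encodes BIM, was the only member whose change with AIL had opposite signs in the 2 transfections. It was at 7.72 RPKM with empty vector and 6.15 with empty vector + AIL, but at 3.46 with AR1-651 and 5.02 with AR1-651 + AIL. The changes on the log2(RPKM + 1) scale were -0.29 and 0.43. BCL2L11 has 18 listed transcripts of 243 to 5231 bases, and the counting interval for the ratios of 0.797 and 1.45 depended on the one assumed. With the shortest it was 0.231 to 2.66 and 0.345 to 7.0, and with the longest 0.641 to 0.981 and 1.12 to 1.88.

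BAD, whose protein is held inactive by phosphorylation downstream of survival signals, was at 107.1, 183.6, 164.4 and 180.8 RPKM. The empty vector library was low and the other 3 lay close together. The ratio with AIL was 1.71 with empty vector (counting interval 1.53 to 1.92) and 1.1 with AR1-651 (1.0 to 1.21), and the sign of the second turned after median-ratio scaling (a log2 change of 0.14 became -0.083). BIK, a BH3-only protein of the endoplasmic reticulum, was at 12.89, 18.63, 12.41 and 17.03 RPKM, higher in both libraries with AIL. Its ratios were 1.45 (1.04 to 2.06) and 1.37 (0.99 to 1.93).

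**Figure D2:**
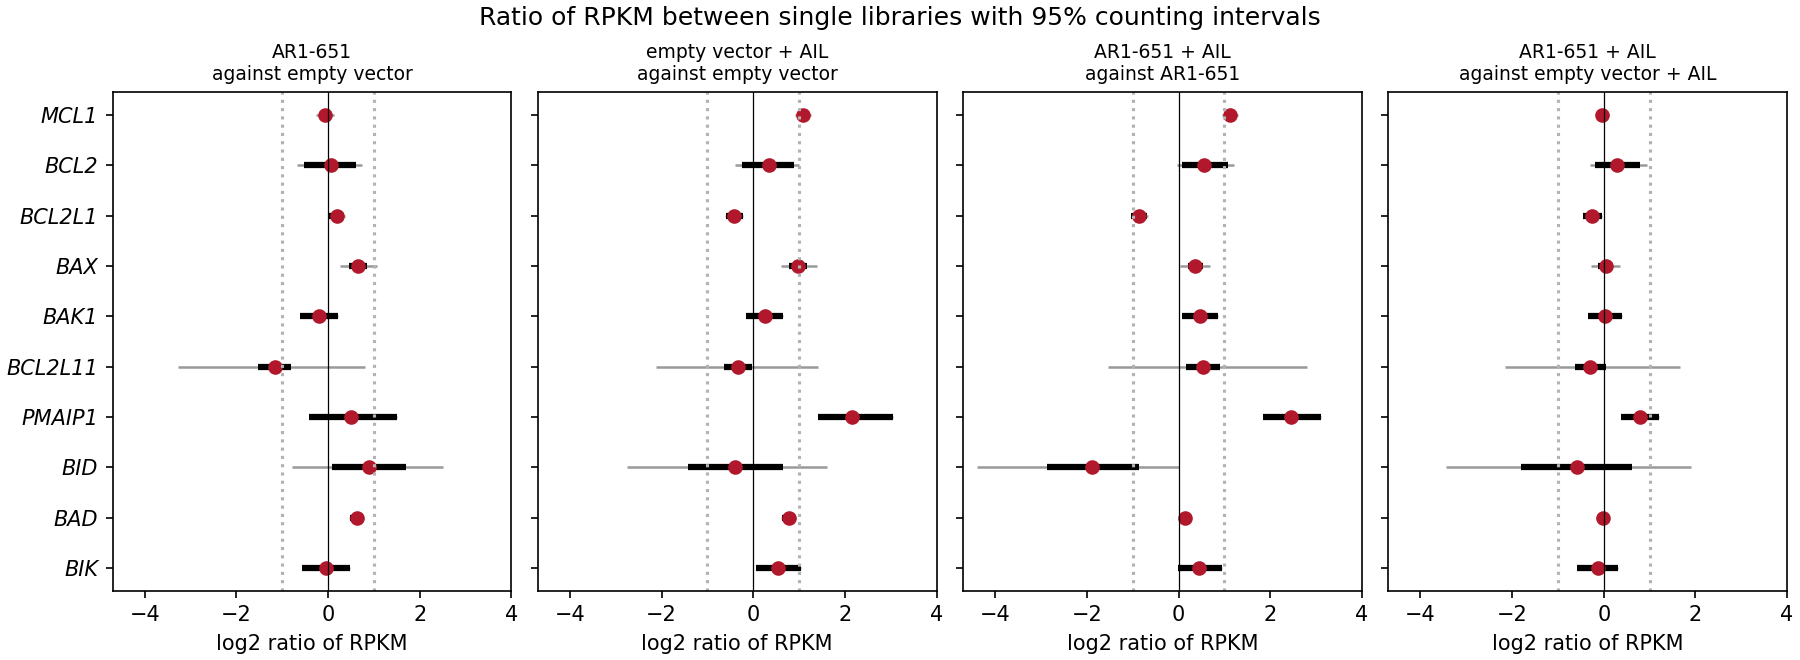
Log2 ratio of RPKM of each member in the 4 comparisons, 1 panel each. Thick bars are 95% counting intervals with the longest listed transcript, thin bars with the shortest, and dotted lines mark 2-fold. PMAIP1 lies furthest above 2-fold in both AIL comparisons, and with the shortest transcript BID and BCL2L11 have the widest intervals.

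The AIL comparisons with empty vector and with AR1-651 share no library, so they could be set side by side. The change had the same sign in both for 9 of 10 members, beside 70.2% of all genes tested. Higher in both were 7 members, beside 5552 of the 14626 genes, and lower in both were 2, beside 4711. Past 2-fold higher in both were 2 of 10 members, beside 830 genes or 5.67% of the total. The closest pair of values was that of MCL1 (1.08 and 1.12), and the widest that of BID (-0.23 and -1.14), followed by BCL2L11. BAX and BAD had the smaller change in the pair with AR1-651, where their level without AIL was already higher than with empty vector. Differences between the 2 changes were not tested.

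**Figure D3:**
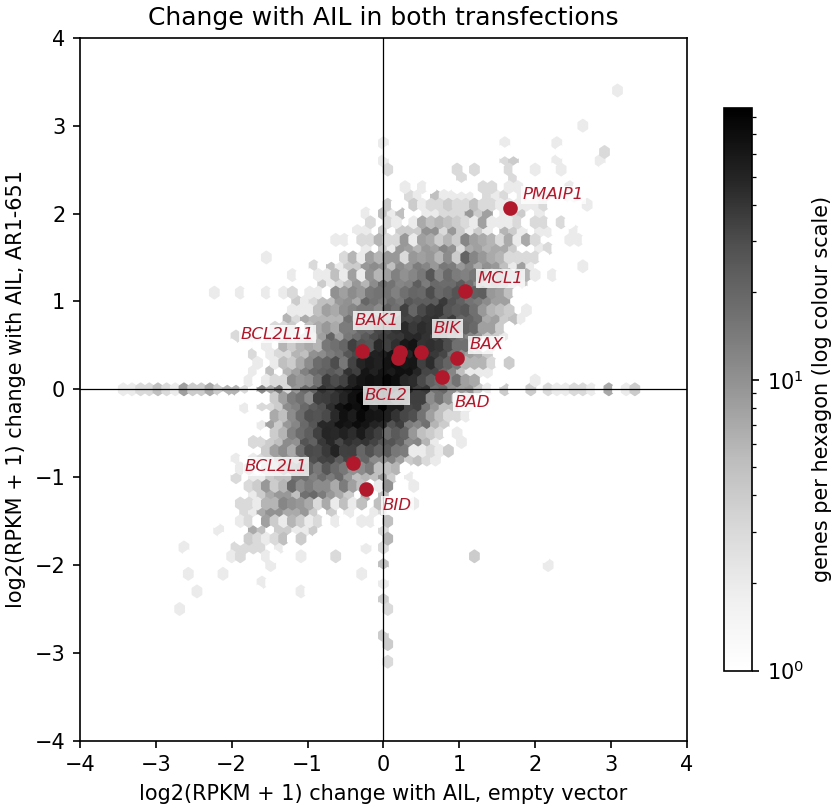
Change of log2(RPKM + 1) with AIL with empty vector (x axis) and with AR1-651 (y axis). Red points are the 10 members and grey hexagons the genes tested, darker where there are more. PMAIP1 and MCL1 lie past 1 on both axes, BCL2L1 and BID below 0 on both, and BCL2L11 is left of 0 and above it.

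The comparison of AR1-651 with empty vector asked what the construct did to the family without AIL. No member was called higher or lower (0 of 10 each), beside 4.01% and 11.6% of all genes. The median change of the members was 0.11, above that of all genes. BCL2L11 came closest, at 7.72 RPKM with empty vector and 3.46 with AR1-651. Its RPKM ratio of 0.448 was past 2-fold, and its change of -0.97 on the log2(RPKM + 1) scale was not. The counting interval was 0.349 to 0.569 with the longest transcript and 0.103 to 1.75 with the shortest. BAX and BAD were higher in the library labelled AR1-651, with ratios of 1.58 (counting interval 1.2 to 2.09) and 1.54 (1.37 to 1.72), at percentiles 90.7 and 90.0. BID had a ratio of 1.86 (0.583 to 5.67 with its shortest transcript and 1.06 to 3.26 with its longest), PMAIP1 of 1.41 (0.75 to 2.82) and BCL2L1 of 1.14 (1.02 to 1.29). MCL1, BCL2, BAK1 and BIK had ratios of 0.953, 1.04, 0.874 and 0.963, and each interval included 1. The sign of MCL1, BAK1 and BIK turned with median-ratio scaling. Across 14005 genes the change in this comparison fell with transcript length (rho = -0.416).

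AR1-651 + AIL against empty vector + AIL asked whether the construct left a difference once AIL was present. Again 0 of 10 members were called in either direction, beside 1.46% of all genes higher and 3.53% lower, and the median changes of members and of all genes were -0.028 and -0.027. PMAIP1 differed most, at 13.28 against 7.65 RPKM, a ratio of 1.74 (counting interval 1.29 to 2.31) and a change of 0.72 on the log2(RPKM + 1) scale, at percentile 95.7. In this comparison the change fell with GC content across genes (rho = -0.608), and with the trend removed the PMAIP1 value was 0.13. BCL2L1 had a ratio of 0.84 (0.726 to 0.974), whose direction turned with the trend removed. For the other 8 members the counting interval included 1, with ratios from 0.664 for BID to 1.22 for BCL2.

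Summed over the members, RPKM as deposited was higher with AIL, although BCL2L1 and BID were lower. Median-ratio scaling divides by 0.876 for AR1-651 and by 1.02 for AR1-651 + AIL, so it narrows the gap in that pair. The summed RPKM of the 10 members was 303.5 with empty vector and 508.0 after AIL, and 386.7 with AR1-651 and 502.1 after AIL. The anti-apoptotic members held 38.5%, 37.0%, 31.0% and 35.8% of this sum, the effectors 18.3%, 20.2%, 21.0% and 21.0%, and the BH3-only members 43.2%, 42.8%, 48.0% and 43.2%. These shares are set mainly by the members with the highest RPKM, so a several-fold change of PMAIP1 or BID moves them little. They therefore do not measure the balance of the roles. BAD alone made up most of the BH3-only sum. For the NOXA and MCL1 pair, PMAIP1 stood at 2.36 RPKM per 100 of MCL1 with empty vector and 4.97 after AIL, and at 3.49 with AR1-651 and 8.82 after AIL. The values without AIL rest on about 17 and 26 PMAIP1 reads. This ratio was not recomputed with the trend removed. There the changes with AIL in the pair with AR1-651 were 1.23 for PMAIP1 and 0.95 for MCL1, against 2.07 and 1.12 as deposited. The PMAIP1 change between the libraries with AIL was 0.13 with the trend removed. BAX exceeded BAK1 by 5.06-fold with empty vector and by 8.42 to 9.12-fold in the other libraries.

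Promoter sequence, taken as the 250 bases before the transcription start from RefSeq on GRCh38.p14, was found for 8 of the 10 members, all but MCL1 and BIK. It was searched on both strands for 3 motifs chosen with the data known. The letters TGACGT, found in sites of the ATF and CREB factors, were present in 7.1% of 35116 promoters and in those of PMAIP1 and BAD. TGACTCA, the AP-1 site (4.2% of all promoters), and AGAACA, a half-site bound by steroid hormone factors (12.4%), were in none of the 8. The PMAIP1 and BAD promoters are shown with the match in capitals, which starts 56 and 54 bases before the start.
PMAIP1 promoter (chr18:59899746-59899995, plus strand): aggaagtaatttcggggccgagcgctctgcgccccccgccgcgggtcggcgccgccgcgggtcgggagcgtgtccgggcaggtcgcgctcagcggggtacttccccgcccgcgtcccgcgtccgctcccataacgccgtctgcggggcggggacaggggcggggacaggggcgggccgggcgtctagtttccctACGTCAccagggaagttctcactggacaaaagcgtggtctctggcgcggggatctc
BAD promoter (chr11:64284705-64284954, minus strand): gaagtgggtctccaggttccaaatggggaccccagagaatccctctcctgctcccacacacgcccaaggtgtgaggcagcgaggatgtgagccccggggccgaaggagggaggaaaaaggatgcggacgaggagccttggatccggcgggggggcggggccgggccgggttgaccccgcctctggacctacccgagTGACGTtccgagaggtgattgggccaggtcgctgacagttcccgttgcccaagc
A match of letters is a description and not evidence of binding. Both genes were higher with AIL than without in each transfection, PMAIP1 past 2-fold and BAD not, and the direction of BAD in the pair with AR1-651 depended on the scaling. BCL2, BAX and BAK1, searched without a match, were also higher with AIL in each transfection as deposited. The BCL2 change in the pair with AR1-651 was -0.064 with the trend removed. BCL2L1 and BID, likewise without a match, were lower in both, and BCL2L11 went opposite ways. With empty vector, the differences of BCL2, BAK1 and BID lay within counting error.

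Transcription factors known to raise BH3-only genes formed a list of 8. With AIL, 3 were called higher with empty vector (beside 9.53% of all genes) and 2 with AR1-651 (beside 14.9%), and none lower. These shares, and 9.03% and 5.74% for genes called lower, are also the background of the list counts that follow. ATF4, the factor of the integrated stress response, was at 170.9 RPKM with empty vector and 703.4 after AIL, and at 271.6 with AR1-651 and 727.1 after AIL. JUN, a subunit of AP-1, was at 35.65, 367.1, 37.97 and 346.0 RPKM. Both were higher in the 2 libraries with AIL than in the 2 without, with changes of 2.03 and 1.42 for ATF4 and 3.33 and 3.16 for JUN on the log2(RPKM + 1) scale. DDIT3, which encodes CHOP, was at 29.13, 65.08, 84.78 and 92.75 RPKM and was called higher with AIL with empty vector (1.13, but 0.97 with the trend removed) and with AR1-651 against empty vector (1.51). FOXO3, a factor that can raise BCL2L11, was at 35.84, 47.11, 13.63 and 25.65 RPKM and was called lower with AR1-651 against empty vector (-1.33, but -0.70 with the trend removed).

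Of 13 other genes of the family, 9 passed the filter. The count called higher and lower was 1 and 2 with AIL with empty vector, and 1 and 1 with AIL with AR1-651. BBC3, which encodes the BH3-only protein PUMA, was at 9.57, 53.8, 5.18 and 32.93 RPKM, with both AIL libraries above both others. Its changes of 2.37 and 2.46 exceeded those of each of the 10 members. BOK, a BAX-like gene, was at 12.07, 4.73, 9.06 and 3.87 RPKM and was called lower in both AIL comparisons (-1.19 and -1.05, the latter -0.92 with the trend removed). The mitophagy receptor BNIP3L was at 35.5, 15.98, 21.3 and 22.58 RPKM and was called lower with AIL with empty vector (-1.10). BMF, a BH3-only gene, was at 5.22, 3.7, 1.73 and 2.15 RPKM and was called lower with AR1-651 against empty vector (-1.19, but -0.88 with the trend removed). BNIP3, with the highest mean level of the list, was at 95.4 to 173.8 RPKM and was not called.

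Downstream of the pore, 18 genes of the mitochondrial apoptosis machinery were tested, and 2 were called higher with AIL with empty vector, 3 with AR1-651, and none lower. BIRC3, an inhibitor of apoptosis protein that is a known NF-kappaB target, was at 1.68, 10.16, 1.09 and 24.42 RPKM. Its changes with AIL were 2.06 and 3.60, and it was also called higher in AR1-651 + AIL than in empty vector + AIL (1.19, but 0.89 with the trend removed). BIRC2 and BIRC6, further inhibitors of apoptosis, were called lower with AR1-651 against empty vector (-1.10 and -1.69) and higher with AIL in the pair with AR1-651 (1.28 and 1.08). Of these calls, only that of BIRC6 against empty vector was kept with the trend removed. ENDOG and VDAC1, the most abundant genes of the list, were at 107.0 to 173.4 and 110.4 to 121.6 RPKM and were not called.

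The death receptor pathway, which joins the mitochondrial route through BID, had 8 of 9 genes tested. With AIL 2 were called higher and 1 lower with empty vector, and 1 higher and 1 lower with AR1-651. FAS, a death receptor, was at 2.44, 14.4, 1.31 and 17.98 RPKM, with changes of 2.16 and 3.04. TNFRSF1A, a receptor for TNF, went the other way, at 29.32, 11.84, 21.5 and 8.75 RPKM, with changes of -1.24 and -1.21. FADD, the adaptor of the death receptors, was at 28.91, 59.73, 41.79 and 58.48 RPKM and was just called with empty vector (1.02, but 0.995 with the trend removed). TNFRSF10B, a receptor for TRAIL, had the highest mean level, at 39.82 to 71.83 RPKM, and was not called.

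Turnover of the MCL1 protein, which these data do not measure, is set by ubiquitin ligases and deubiquitinases, 6 of which were tested. With AIL 1 was called higher in each transfection and none lower. FBXW7, the ligase subunit that recognises phosphorylated MCL1, was at 3.67, 18.31, 2.13 and 29.63 RPKM, and its changes were 2.05 and 3.29. HUWE1, a ligase, and USP9X, a deubiquitinase, were called lower with AR1-651 against empty vector (-1.13 and -1.70). HUWE1 stood at -0.415 with the trend removed and USP9X at -1.03. MARCHF5, the most abundant gene of the list, was at 13.71 to 18.5 RPKM. In the pathway lists other than the members, 8 genes were called with AIL in both transfections. The lists held 9 (other family genes), 18 (mitochondrial machinery), 8 (death receptor pathway), 6 (MCL1 turnover) and 8 (transcription factors) tested genes. Of all genes tested, 5.67% were called higher in both, and the share called lower in both was not counted. The lists were chosen with earlier results known, so the count is not a result about the pathways.

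**Figure D4:**
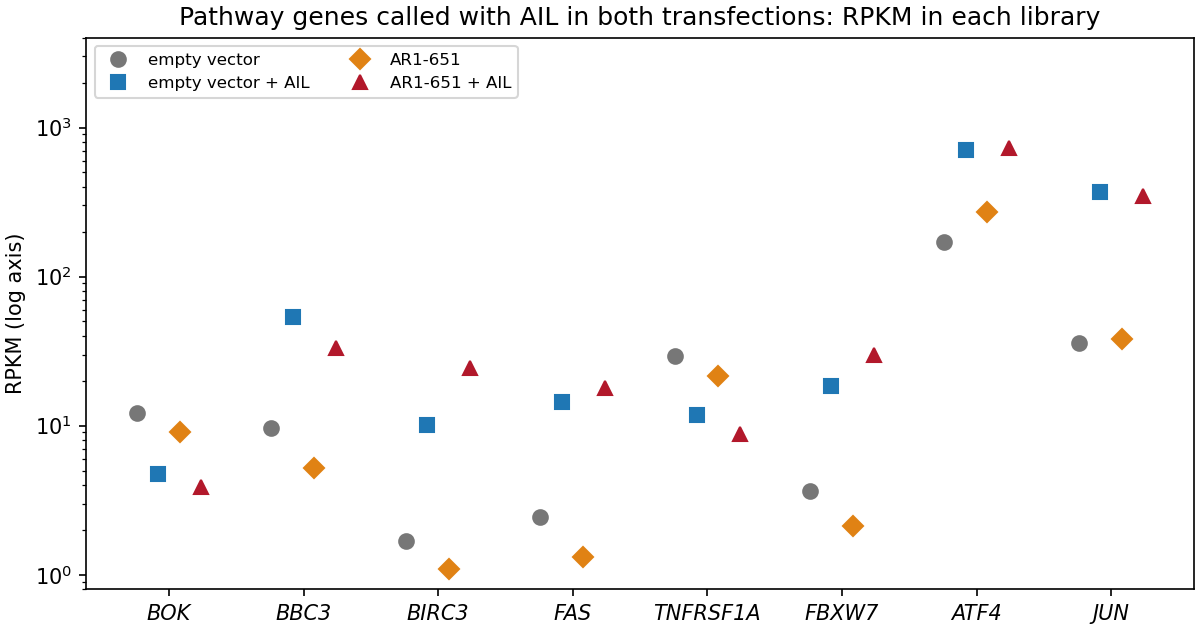
RPKM (log axis) in the 4 libraries of the 8 pathway genes called with AIL in both transfections. BBC3, BIRC3, FAS, FBXW7, ATF4 and JUN are higher in both libraries with AIL, and BOK and TNFRSF1A are lower in both.

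The medians of the pathway lists describe their genes as a whole. For AIL with empty vector, the medians were 0.19 for the mitochondrial machinery, 0.54 for the death receptor pathway, 0.13 for MCL1 turnover, 0.48 for the transcription factors and -0.24 for the other family genes, beside -0.018 for all genes. For AIL with AR1-651 they were 0.33, 0.31, 0.50, 0.37 and -0.031, beside 0.13.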

How the data were processed

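Total RNA of the 4 LNCaP cultures was sequenced on the Illumina HiSeq2000. The labels name a stranded ribosomal-depletion kit and also describe oligo(dT) enrichment. The authors deposited RPKM rounded to 2 decimals. The submitters' processing notes name BWA 0.7.10-r789 and hg19; the counting tool, gene annotation and use of strand are not given in the sources used here, so reads of overlapping genes cannot be told apart. RPKM depends on the makeup of a library, so genes that take more reads lower the values of the others.

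Entrez identifiers were matched to symbols with a RefSeq gene table (19703 genes). Of the lists, KRT5 and TP63 were not analysed here. Changes are differences of log2(RPKM + 1) among genes that reached 1 RPKM in any library. Depth was estimated from short genes with GENCODE release 29 lengths, where RPKM steps match whole reads within 0.05 for 4 or 5 of the 5 to 8 genes held out per library. Reads per member follow from the shortest and the longest listed transcript, and ratio intervals (exact conditional binomial, 95%) cover counting error only. Alternatives were median-ratio scaling, a pseudocount of 0.1, a filter at 5 RPKM or none, a threshold of 1.5-fold, and removal of the length and GC trend (polynomial of degree 3 in the ranks). The scripts ran under Python 3.11.15 with pandas 2.3.3, SciPy 1.17.1 and NumPy 2.4.6, and were tested on simulated data.

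The members and lists were chosen with earlier results of these data known. All 10 members are named, and of each other list the genes called in at least 1 comparison or among the 2 with the highest mean RPKM. Some genes are not reported here.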

Additional observations from a re-analysis of the deposited data

Results flagged for a closer look

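BCL2L11 was singled out because its change with AIL went opposite ways in the 2 transfections, each of 1 library per arm. On the log2(RPKM + 1) scale the change was -0.29 in the pair with empty vector and 0.43 in that with AR1-651, a difference of 0.719. This difference was not tested, since there are no replicates. Its level without AIL was 7.72 RPKM with empty vector and 3.46 with AR1-651, and with AIL 6.15 and 5.02.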

How the results depend on the processing

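Counts of called members came from single libraries, so depth limits only the counting error, which is wide for BID, for PMAIP1 and, with its shortest transcript, for BCL2L11. A pseudocount of 0.1 gave 1 member called lower with AR1-651 against empty vector (BCL2L11), beside 20.8% of all genes. For AR1-651 + AIL against AR1-651, median-ratio scaling gave 1 member called higher and 2 called lower (10.8% and 8.62% of all genes), removal of the length and GC trend gave 1 higher (8.27%), and RPKM of at least 5 gave 0 lower (6.5%), since BID did not pass that filter. A threshold of 1.5-fold gave 3 higher and 1 lower for AR1-651 against empty vector (10.7% and 32.3% of all genes), 4 higher for empty vector + AIL against empty vector (20.9%), 2 lower for AR1-651 + AIL against AR1-651 (14.7%), and 1 higher for AR1-651 + AIL against empty vector + AIL (7.73%). Members with the same sign of change with AIL in both transfections numbered 8 of 10 with median-ratio scaling and with the trend removed. Of the 40 changes of members, the sign turned in 6 with median-ratio scaling, in 7 with the trend removed and in 0 with a pseudocount of 0.1, and the call of PMAIP1 was kept in both AIL comparisons under each of these 3 settings. The cause of these changes was not tested. No paired analysis was possible because each group has 1 library.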
